A study of Homo sapiens with 3 samples.

Results

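Late-annotated human miRNAs were taken as all array names of the form hsa-miR-N from miR-1178 up, without an asterisk, apart from 9 names that were left out with results of these data already known. They were 114 of the 851 human miRNA names on the array. The 9 names left out are miR-1202, miR-1225-5p, miR-1915, miR-1260, miR-1274a, miR-1274b, miR-1280, miR-1308 and miR-1826. The comparison set was formed by 547 older names of the same form, with numbers below that of miR-1178, no asterisk and without the transfected pair. Names of another form, such as those of let-7, were not part of it.

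RNA held by Argonaute2 (Ago2) was recovered by immunoprecipitation from Hep G2, an established human liver cancer cell line, and each immunoprecipitate was hybridised to 1 single-colour Agilent miRNA array. Non-treated cells received no mimic. For the other arrays, a double-stranded mimic of either miR-195 or miR-497 was transfected at 5 nM, and cells were collected after 24 hours. No array of a control mimic was analysed here, so transfection and mimic cannot be told apart in any comparison with the non-treated array. Each group held 1 array, so all differences were without a replicate check and no test between groups was possible. Precision is limited by the number of arrays. Other arrays that the study may have run were not analysed here.

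MiRNAs are numbered in the order in which they were entered in the registry. Low numbers hold many abundant, deeply conserved miRNAs that were found by cloning, whereas high numbers came largely from deep sequencing and include many rare or primate-restricted RNAs, short hairpin introns (mirtrons) and fragments of other small RNAs. Some entries of this period were later withdrawn. Ago2 binds the guide strand of a mature miRNA and presents its seed, bases 2 to 8, to target mRNAs, so the Ago2 fraction holds the strands that are loaded into the silencing complex.

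Of the 7 late-annotated miRNAs with at least 1 spot well above background on some array, the sequences of 5 are given below. They are from the RefSeq table of GRCh38.p14, 5′ to 3′ with the seed in capitals. The array names miR-1249 and miR-1228 carry no arm, so both arms are shown, and the other entries bear the same name as on the array. miR-1207-5p and miR-1227 are not shown.
hsa-miR-1249-5p: aGGAGGGAggagaugggccaaguu
hsa-miR-1249-3p: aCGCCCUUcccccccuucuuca
hsa-miR-1228-5p: gUGGGCGGgggcaggugugug
hsa-miR-1228-3p: uCACACCUgccucgcccccc
hsa-miR-1224-3p: cCCCACCUccucucuccucag
hsa-miR-1281: uCGCCUCCuccucuccc
hsa-miR-1825: uCCAGUGCccuccucucc
Base composition was not compared between detected and undetected names. Of the 114 names, 56 (49.1%) had a mature entry under their own array name and 94 (82.5%) had at least 1 entry by name or arm, but for a name without an arm the table does not say which arm the probes match. For 20 names there was no entry.

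Other late-annotated miRNAs share the seed of a family whose older members were bright on the same arrays. The array names of these miRNAs carry no arm. An arm printed here is the one with the shared seed, and which arm the probes match is not given. miR-1297 is shown with miR-26b and miR-26a, and miR-1271 with miR-96.
hsa-miR-1297: uUCAAGUAauucaggug
hsa-miR-26b-5p: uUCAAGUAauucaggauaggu
hsa-miR-26a-5p: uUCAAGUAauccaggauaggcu
hsa-miR-1271-5p: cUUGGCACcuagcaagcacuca
hsa-miR-96-5p: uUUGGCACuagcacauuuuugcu
miR-1297 and miR-26b were identical over their first 15 bases, and miR-1297 and miR-26a over the first 10.

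Among the late-annotated miRNAs, 1 of 114 (0.877%) was detected in Ago2 of non-treated cells and 1 of 114 (0.877%) in Ago2 of cells given miR-195. In cells given miR-497 the count was 0 of 114. The name detected on the first pair of arrays was miR-1249. A miRNA was called detected when more than 50% of the usable spots of at least 1 of its probes were marked well above background by the scanner software. Of all human names, 19.7%, 18% and 14.2% were detected on the non-treated, miR-195 and miR-497 arrays, 168, 153 and 121 of 851. Of the older names, 133 of 547 (24.3%), 123 (22.5%) and 98 (17.9%) were detected in the same order. The share of late-annotated miRNAs was thus far below the share of older names on each of the 3 arrays. No asterisk name from miR-1178 up was detected (0 of 6), nor was any of the 88 viral names, which served as a measure of background.

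The choice of the 9 exceptions affected these counts. miR-1202, miR-1225-5p and miR-1915 were detected in non-treated cells and in cells given miR-195, and the first pair of them also in cells given miR-497. The signal of miR-1202 was 684, 1615 and 463 units on the non-treated, miR-195 and miR-497 arrays, and that of miR-1225-5p was 201, 550 and 132 units. The other 6 exceptions were not detected on any array. With the exceptions counted, 4, 4 and 2 of 123 names were detected, or 3.25%, 3.25% and 1.63%. These shares were still below those of the older names.

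Over all names of the form hsa-miR-N without an asterisk, detection was lower in each later band of numbers up to that ending at miR-1177. The transfected pair and names of another form, such as those of let-7, were not counted. On the non-treated array, 74.5% of the 51 names from miR-1 to miR-99 were detected, 39.5% of the 81 from miR-100 to miR-199, 27.7% of the 101 from miR-200 to miR-399, 13.6% of the 191 from miR-400 to miR-599 and 9.3% of the 86 from miR-600 to miR-799. Of the 37 names from miR-800 to miR-1177, the non-treated, miR-195 and miR-497 arrays detected 1, 2 and 1. That last band, at 2.7%, 5.41% and 2.7%, lay close to the 3.25%, 3.25% and 1.63% of all 123 names from miR-1178 up.

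**Figure D1:**
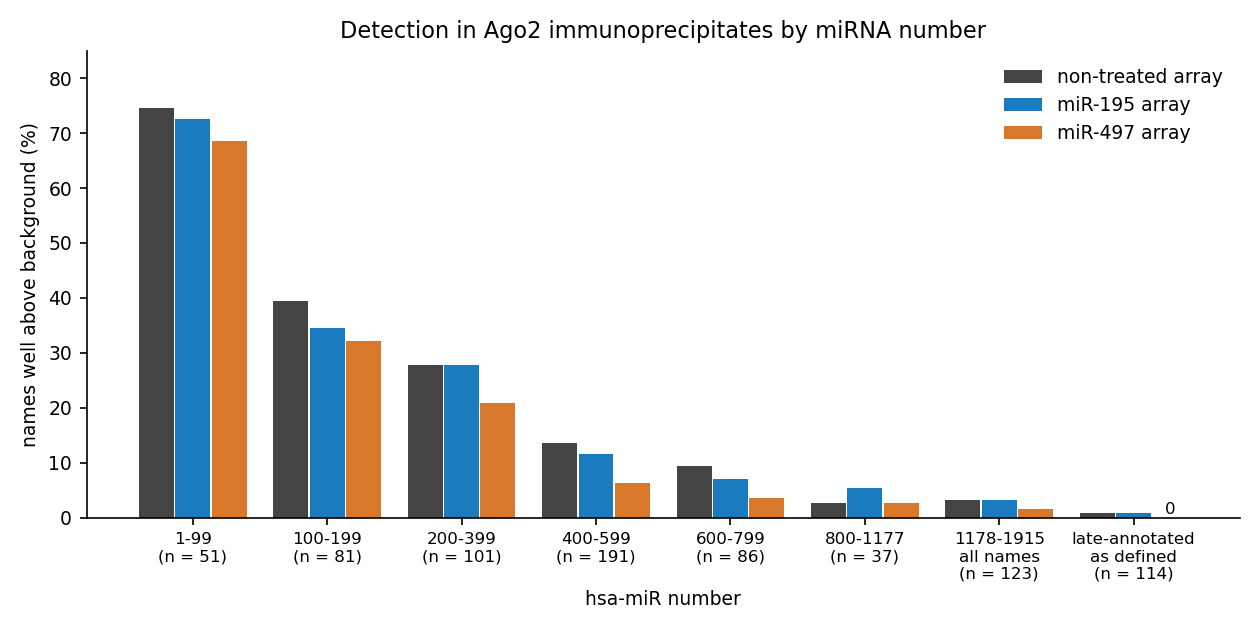
Share of names detected in Ago2 (%, bars from 0) by band of hsa-miR number, without asterisk names and the transfected pair, on the non-treated, miR-195 and miR-497 arrays, with the number of names under each band. On the non-treated array the share falls from 74.5% for miR-1 to miR-99 to 2.7% for miR-800 to miR-1177. It is 3.25% for all 123 names from miR-1178 up and 0.877% for the late-annotated miRNAs as defined, without the exceptions. The last bar group is at 0 on the miR-497 array.

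The probes per name also differed between the sets. Every name was covered by 16 spots, and 99 of the 114 late-annotated names (86.8%) had 2 probes compared with 311 of 547 older names (56.9%). Among older names with 2 probes, 120 of 311 (38.6%) were detected on the non-treated array. Among late-annotated names with 2 probes it was 1 of 99 (1.01%). By band, the share of names with 2 probes detected on this array was 79.1%, 45.6%, 38.6%, 20.6%, 31.6% and 11.1% from the lowest numbers to miR-1177, and 3.7% of the 108 from miR-1178 up with the exceptions counted. The order of the bands was thus not the same as over all names, since the band from miR-600 to miR-799, with 19 such names, lay above the one before it. The band from miR-800 to miR-1177 held only 9 such names, of which 1 was detected. Older names with 4 probes were detected in 10 of 190 cases, and those with 3 probes in 3 of 43.

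Hep G2 identity was examined through tissue-marking miRNAs. miR-192 gave 3003, 3478 and 1352 units and miR-194 gave 596, 602 and 165 units on the non-treated, miR-195 and miR-497 arrays. miR-148a was detected on the first pair of arrays only, at 72.5 and 75.5 units. miR-122, the most abundant miRNA of hepatocytes, was not well above background on any array. Of the markers of other tissues, miR-142-3p of blood cells was detected on all 3 arrays (1521, 1244 and 397 units), and miR-223, miR-451, miR-1, miR-133a, miR-124 and miR-9 on none. The miR-497 array was dimmer, with a 75th percentile of 263 units over 183 probes detected on all 3 arrays, compared with 827 units in non-treated cells and 778 in cells given miR-195. Its part in the lower counts on that array was not tested.

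miR-1249 is encoded by a gene on chromosome 22 that lies within KIAA0930 in the GRCh38.p14 annotation. Its signal, the sum of its probe means, was 31.7 units in non-treated cells (SE between spots 2.78), 53.6 units in cells given miR-195 (SE 1.25) and 24.7 units in cells given miR-497 (SE 1.56). It was highest on the miR-195 array and below detection on the miR-497 array. These SE values cover technical error within an array only.

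The spots of miR-1249 showed how close it lay to the limit. On the non-treated array 8 of 16 spots were well above background. Of its 2 probes, 1 passed with 5 of 8 spots and a mean of 17.1 units (SD 6.14), and the other stayed outside with 3 of 8 spots and 14.7 units (SD 4.90). The means of these probes differed by less than their spread between spots, so the detection call in non-treated cells rested on a small margin. On the miR-195 array all 16 spots were well above background, with probe means of 27.5 (SD 1.41) and 26.2 units (SD 3.26). On the miR-497 array only 2 of 16 spots were, both of them on the probe with a mean of 14.1 units (SD 3.72).

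miR-1249 was the only late-annotated miRNA that could be compared between arrays, and only for miR-195 against non-treated cells. After each array was divided by its 75th percentile, miR-1249 was 0.84 log2 units higher on the miR-195 array (spot SE 0.13), or 1.79-fold. Before scaling it was 0.76 log2 units, or 1.69-fold, higher. The difference exceeded the spread between spots, but it did not reach 2-fold, and there were no replicate arrays to set it against. Over all 147 human names measured on both arrays the median scaled difference was -0.01 log2 units, and miR-1249 ranked 5 of 147 from the highest. Of these 147 names, 2.72% (4) were higher and 0.68% (1) were lower by 2-fold or more on the miR-195 array. The late-annotated miRNAs gave 0 of 1 in both directions, which is too few to read against that background. The difference of miR-1249 was 0.25 log2 units with the normexp method, which was run with an offset of 50 units. That offset exceeded the mean per probe of miR-1249, 15.9 units in non-treated cells and 26.8 units on the miR-195 array. A constant added on both arrays makes a log2 difference smaller. Dependence on the background estimate itself therefore cannot be read from this value, and normexp without an offset was not tested.

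Between the miR-497 array and either of the other arrays no late-annotated miRNA was measured on both sides. For miR-1249 only a bound was available on the miR-497 array, and after scaling this bound lay above the measured values, so no fold is given.

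**Figure D2:**
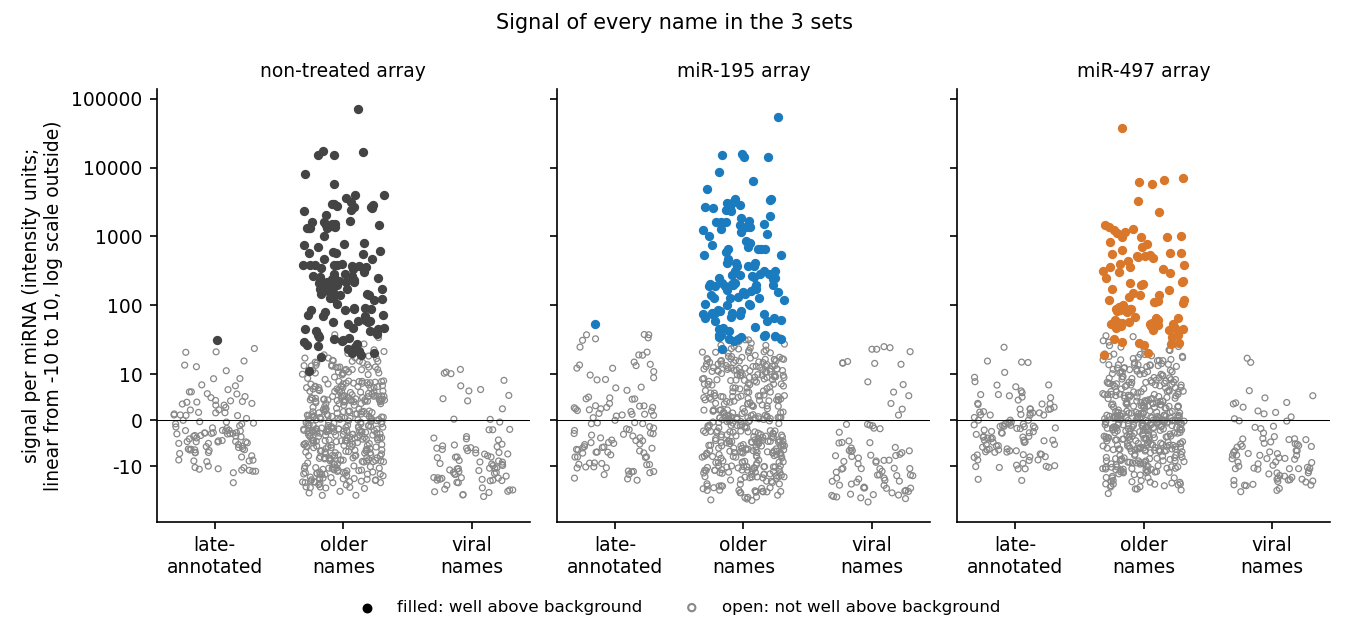
Signal of every late-annotated miRNA (114), older name (547) and viral name (88) in intensity units, on an axis that is linear from -10 to 10 and logarithmic outside, with 1 panel per array. Filled points were detected and open points were not, with horizontal scatter for visibility only. Late-annotated miRNAs show 1, 1 and 0 filled points and the undetected ones span -17.2 to 37.9 units.

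The other late-annotated miRNAs lay around zero after background subtraction. On the non-treated array the 113 undetected names ranged from -17.2 to 23.7 units with a median of -2.74, and 73 of them (64.6%) were below 0. On the miR-195 array 113 undetected names ranged from -15.9 to 37.9 units with a median of -1.83, and on the miR-497 array 114 names ranged from -16.0 to 24.7 units with a median of -1.77. Older names that were detected had a median of 240, 251 and 136 units.

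Names with the same number of probes were compared, because the signal is a sum over probes. For undetected names with 2 probes the median was -2.70 units for late-annotated miRNAs, 0.64 for older names and -7.69 for viral names on the non-treated array. It was -2.11, 0.89 and -8.70 units on the miR-195 array, and -1.61, 0.88 and -5.64 units on that of miR-497. On each array the late-annotated miRNAs thus lay between the viral and the undetected older names, although only 15 viral names had 2 probes.

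Few single spots passed. Of the usable spots of late-annotated miRNAs, 10 of 1623 (0.616%) were well above background in non-treated cells, 22 of 1646 (1.34%) in cells given miR-195 and 2 of 1652 (0.121%) in cells given miR-497. Most of these belonged to miR-1249, with 8, 16 and 2 spots. For older names the share was 19.5%, 18.1% and 13.4%, and for viral names 0.147%, 0.22% and 0%. Without miR-1249 the late-annotated miRNAs had 2 of 1607 spots (0.124%), 6 of 1630 (0.368%) and 0 of 1636 well above background. These spots are too few to rank the late-annotated miRNAs above or below the viral shares.

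The undetected signals were similar from array to array. Across the 113 late-annotated names that no array detected, Spearman's rho was 0.84 for miR-195 against non-treated, 0.84 for miR-497 against non-treated and 0.71 for miR-497 against miR-195. These are correlations across names, which are not independent replicates. The 88 viral names, with 0.86, 0.85 and 0.70, and 411 undetected older names, with 0.88, 0.84 and 0.76, gave like values. The points share the same probe sequences on every array.

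By summed signal, the highest undetected late-annotated miRNAs in non-treated cells were miR-1228, miR-1238 and miR-1259. miR-1228, whose gene lies within LRP1, gave 23.7, 33.9 and 14.9 units on the non-treated, miR-195 and miR-497 arrays, with 1 spot of 14 well above background in non-treated cells and none elsewhere. miR-1238, a mirtron within ATG4D, gave 21.2, 37.9 and 15.6 units, and miR-1259 gave 20.9, 19 and 15.1 units, with no spot of either well above background. The sum depends on the number of probes, which was 2 for miR-1228 and 4 for the other pair. Per probe, miR-1228 gave 11.9 units in non-treated cells, miR-1238 gave 5.31 and miR-1259 gave 5.23. miR-1268 (7.83), miR-1207-5p (6.81), miR-1234 (6.47) and miR-1281 (5.65), each with 2 probes and named after their values were seen, lay between miR-1228 and miR-1238 by this measure.

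A further 5 late-annotated miRNAs had at least 1 spot well above background on some array, and they were picked out after their values were seen. These were miR-1207-5p, miR-1224-3p, miR-1227, miR-1281 and miR-1825. miR-1207-5p gave 13.6, 37.5 and 9.36 units on the non-treated, miR-195 and miR-497 arrays. miR-1281 gave 11.3, 31.2 and 1.16 units, and miR-1825, whose gene lies within POFUT1, gave 7.73, 32.8 and 3.57 units. miR-1224-3p, from a mirtron within VWA5B2, gave 2.26, 37.6 and -2.09 units, and miR-1227, from a mirtron within PLEKHJ1, gave 9.06, 21.1 and 1.81 units. Before scaling, all 5 were highest on the miR-195 array and lowest on the miR-497 array, the dimmest array, as was miR-1249. For 4 of them the marked spots lay on the miR-195 array, 2 for miR-1207-5p, 2 for miR-1281, 1 for miR-1825 and 1 for miR-1224-3p, while that of miR-1227 lay on the non-treated array. Those 4 were thus picked by their spots on the miR-195 array, so their high place there is no separate result. Since neither array of any pair measured these 5, no fold is given.

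**Figure D3:**
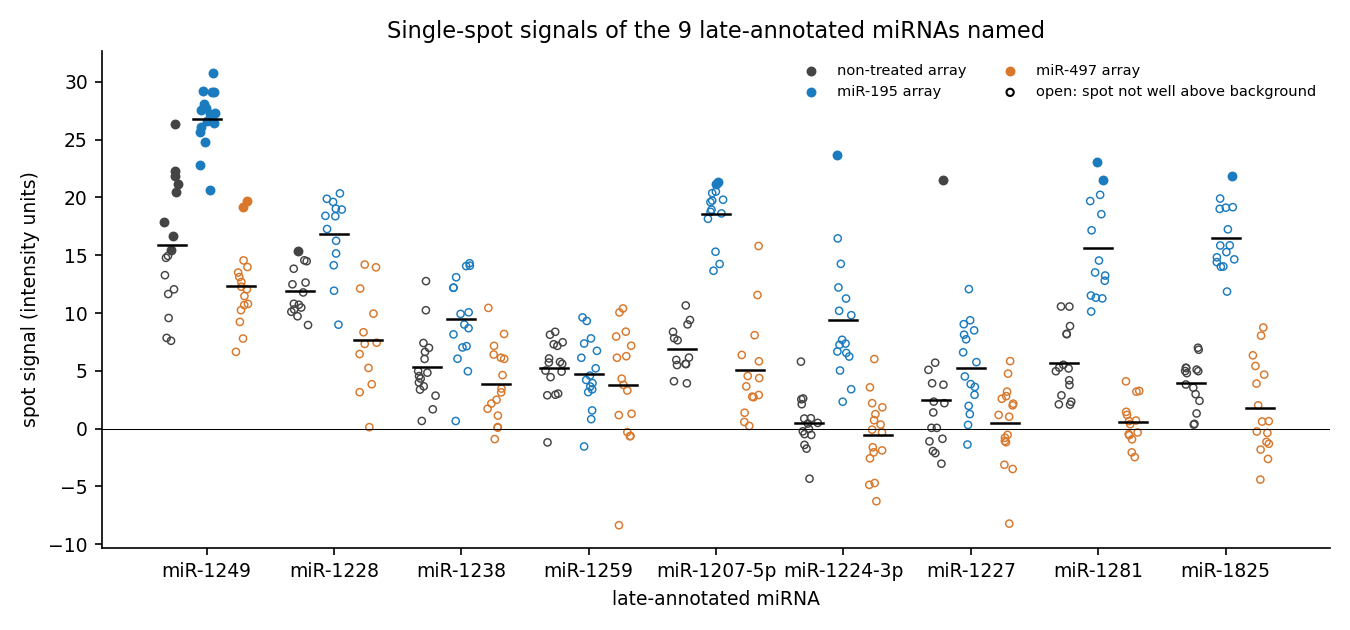
Signal of each usable spot, in intensity units, for the 9 late-annotated miRNAs named, by array (colour), with filled points for spots well above background, open points for the others and a black line at the mean over spots. All 16 spots of miR-1249 on the miR-195 array are filled, while the other 8 miRNAs have at most 2 filled spots on any array.

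A second measure of background was the highest probe mean of any viral name, 5.68, 14.4 and 7.74 units on the non-treated, miR-195 and miR-497 arrays. This limit was chosen after the data were seen. In non-treated cells 9 late-annotated miRNAs had a probe above it. On the miR-195 array there were 5 (miR-1207-5p, miR-1228, miR-1249, miR-1281 and miR-1825), and on the miR-497 array there were 3 (miR-1228, miR-1249 and miR-1268). miR-1268 gave 15.7, 24.9 and 11 units. miR-1228 and miR-1249 passed this limit on all 3 arrays. The shares of older names and of all human names above this limit are not given here. These counts therefore cannot be read as high or low for the array.

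The late-annotated miRNAs were then described by origin. The names from miR-1224 to miR-1240 hold many mirtrons and mirtron candidates, hairpins that arise from short introns. None of the 13 such names among the late-annotated miRNAs was detected on any array. This held for 113 of all 114 late-annotated names, while 174 of 851 human names (20.4%) were detected on at least 1 array. miR-1225-5p, 1 of the exceptions, also has a number in this range. It was detected on all 3 arrays and is not among the 13. Its signal was 201, 550 and 132 units on the non-treated, miR-195 and miR-497 arrays. Since 7 of the 13 had 3 or 4 probes, as against 7 of the other 101 names, their signals are given as means per probe. The median was 0.57 units in non-treated cells, 4.79 on the miR-195 array and -0.52 on that of miR-497, compared with -1.37, -1.39 and -0.90 units for the other 101 names. On the miR-195 array 12 of the 13 had a higher signal than in non-treated cells, with a median difference of 3.0 units per probe before scaling. Among 100 other late-annotated names that no array detected, 47 were higher on the miR-195 array, with a median difference of -0.15 units per probe. Of the 6 names of the range with 2 probes, 5 were higher on the miR-195 array, with a median difference of 1.47 units per probe, compared with 44 of 92 others with 2 probes (median -0.13). In cells given miR-497, 1 of the 13 was higher than in non-treated cells, with a median difference of -1.40 units per probe, compared with 55 of the 100 others (median 0.16). These values were also unscaled, and the part of the dimmer miR-497 array in them was not tested. These differences all lay below the detection limit, and no replicate array was at hand.

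None of 4 names listed here as possible parts of other small RNAs was detected. In the annotation used, such an overlap was found for 2 of them. No overlap was found for miR-1246, and miR-1201 had no gene entry to look up. miR-1248 overlaps the small nucleolar RNA SNORA81 within EIF4A2, and miR-1291 overlaps SNORA2C within KANSL2. miR-1246 gave 3.31, 2.82 and 5.35 units, miR-1201 gave -3.40, -1.83 and -5.82, miR-1248 gave -2.94, -4.28 and 1.22, and miR-1291 gave -11.4, -13.1 and -9.85 units on the non-treated, miR-195 and miR-497 arrays. None of the 4 had a spot well above background.

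The 2 late-annotated members examined from each of the large clusters of chromosomes 19 and 14 gave no detectable signal either. Of the chromosome 19 cluster, best known from placenta, miR-1283 gave -8.64, -9.36 and -4.31 units and miR-1323 gave 3.56, 4.67 and 2.87 units. Of the chromosome 14 cluster, miR-1185 gave 5.81, 7.23 and 5.62 units and miR-1197 gave 2.30, 0.59 and 0.04 units. None of these was detected on any array, which held for 113 of all 114 late-annotated names.

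Late-annotated miRNAs that share a seed with an older name allowed a comparison within a seed family. miR-1297 gave -6.28, -12.0 and -10.9 units, while miR-26b gave 1600, 1607 and 546 units and miR-26a gave 269, 204 and 65.4 units on the non-treated, miR-195 and miR-497 arrays. Both older relatives were detected on every array, whereas miR-1297 had none of its spots well above background. miR-1271 gave -1.62, -5.01 and -5.50 units, compared with 470, 536 and 176 units for miR-96. miR-1270 and its relative miR-620, and miR-1323 and its relative miR-548o, were not detected on any array. The probes of miR-1297 stayed at background beside miR-26b, whose first 15 bases printed above are the same. Different probes do not share a scale, so the levels are given side by side as detected and not detected.

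**Figure D4:**
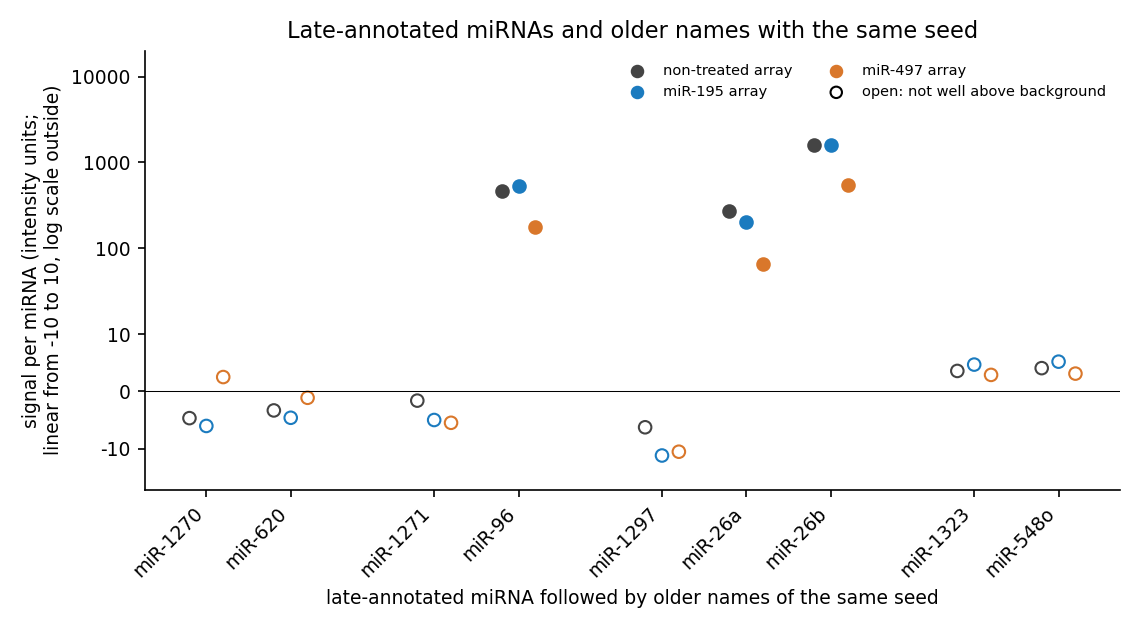
Signal in intensity units (linear from -10 to 10, logarithmic outside) of 4 late-annotated miRNAs, each followed by the older names with the same seed, on the 3 arrays. Filled points were detected and open points were not, and miR-96, miR-26a and miR-26b are filled on every array while the late-annotated miRNAs are open on all.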

How the data were processed

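Hep G2 Ago2 immunoprecipitates were profiled on 3 arrays of 1 slide, 1 per group, from 10 ng of RNA each, grouped by the sample labels. Per the file headers the deposited scanner files hold spot intensity from Agilent Feature Extraction 10.7.1.1, background-subtracted and detrended within each array, with flags for outliers and for spots well above background. The authors also deposited a table of log2 values from GeneSpring, used here as an alternative. Control spots and outlier spots were left out, spots were averaged per probe and probe means summed per miRNA (python 3.11.15, numpy 2.4.6, pandas 2.3.3). Scaling, for differences only, divided by the 75th percentile over the 183 probes detected on all 3 arrays. Differences were described by a fixed size of 2-fold, without the transfected miRNAs and their passenger strands. For an array that did not detect a miRNA, the larger of that miRNA's signal and the lowest detected signal served as a bound. No test was run, since each group held 1 array. The summaries were tested on simulated data.

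The members and lists were chosen with earlier results of these data known. Named were every late-annotated miRNA detected on an array or 2-fold different between arrays, the 3 brightest undetected ones in non-treated cells, up to 4 examples of each origin group, and older names that share a seed with a member. Others are marked as chosen after their values were seen. Sequences and genes came from RefSeq tables of GRCh38.p14. No coordinates are given, because the files name another build. Alternatives covered the detection rule, scaling, background (normexp with an offset of 50, limma 3.58.1), probe summary, spot use, deposited table and exceptions.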

Additional observations from a re-analysis of the deposited data

How the results depend on the processing

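The counts of detected late-annotated miRNAs were small, and most other rules changed them. In non-treated cells the count of 1 became 0 when all spots of a probe or at least 2 probes had to pass, 3 with at least 1 spot, 2 by the software flag and in the deposited table, 4 with the exceptions counted, and 9 by the viral limit, which was chosen after seeing the data. On the miR-195 array the count of 1 became 5 with at least 1 spot, 6 by the software flag and in the deposited table, 4 with the exceptions and 5 by the viral limit. On the miR-497 array the count of 0 became 1 with at least 1 spot, by the software flag and in the deposited table, 2 with the exceptions and 3 by the viral limit. The other 7 alternative counts did not change. For older names, a share under another detection rule is given only for the deposited table (26.5%, 26.3% and 20.8%). Whether the gap to older names holds under the remaining detection rules cannot be read from these counts.

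For miR-1249 the difference of the miR-195 array from non-treated cells, 0.84 log2 units, was 0.31 with the 75th percentile over all probes, 0.60 with quantile normalization, 0.25 with normexp and 0.70 over log2 probe means. In the deposited table the median of 2 names was 0.62, and with the exceptions that of 4 names was 1.32. The scaling over all probes moved the median of all 147 measured names to -0.55 and quantile normalization moved it to -0.20. Relative to that median miR-1249 was 0.85 and 0.80 log2 units higher, against 0.22 with normexp. Both normexp values include the offset of 50 units, whose part in them was not tested. The count at least 2-fold higher on the miR-195 array, 0, became 3 with the exceptions and 1 at 1.5-fold. On the miR-497 array 2 exceptions were at least 2-fold higher than in non-treated cells, and in the deposited values 1 name, miR-1249, was lower than on either other array (-1.14 and -1.88 log2 units, unscaled, from a software total of 7.48 units where its own probes summed to 13.1). The other 67 alternative counts of 2-fold differences equalled the count reported. Most of them could only be 0, because no late-annotated miRNA was measured on both arrays of a pair with miR-497. Those of the miR-195 array against non-treated cells rested mostly on miR-1249 alone. Their equality therefore says little about stability. No paired analysis was possible because each group held 1 array. With 1 array per group no replicate could be left out.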

Other observations

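The software totals in the deposited table did not always follow the probes of the late-annotated miRNAs. Software totals, per miRNA and per probe, are on another scale than the signals given above. The total of miR-1281 on the miR-195 array was 92.5 units, while the totals of its own probes summed to 16.1 units, and that of miR-1224-3p was 23.0 units compared with 9.67. For miR-1249 both values were 16.5 units in non-treated cells and 27.6 units on the miR-195 array, but on the miR-497 array the total was 7.48 units and the totals of its probes summed to 13.1. Among its values 2, 6 and 1 late-annotated names stood above the floor on the non-treated, miR-195 and miR-497 arrays (1.75%, 5.26% and 0.877%), compared with 26.5%, 26.3% and 20.8% of the older names. Of the 6 names on the miR-195 array, 5 were not detected by the spot rule used here. miR-1281 was the brightest of them in the deposited table, at 6.53 on the log2 scale, compared with 4.79 for miR-1249.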
